A study of Mus musculus with 4 samples.

Results

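The genes described here encode the machinery that copies DNA in S phase, and 47 were listed by name across 7 roles. They were the origin recognition and licensing factors, the MCM helicase, the origin firing factors, the polymerases with primase, the sliding clamp with its loader and the single-strand binding protein RPA, Okazaki fragment maturation, and nucleotide supply. Of the 47 genes, 37 were measured, among 8248 genes tested on the array. The list was drawn up by gene function and older gene symbols were accepted.

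RNA came from mouse embryonic stem (ES) cells, marked E14 in the labels and grown under normal ES cell conditions. Short hairpin RNAs were delivered with lipofectamine, and targeted GFP, Esrrb alone, Sox2 alone, or both factors at once (dual). Cells that had taken them up were kept by puromycin for 2 days before RNA was taken. The GFP hairpin was the control, so all 4 groups had been through transfection and selection. Each group had 4 single-colour Illumina bead arrays, lettered A to D. Since the labels leave unsaid whether a group's arrays stem from separate transfections, each p-value covers the array-to-array spread alone, and that spread may be technical. No source used here gives the hairpin sequences.

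Replication starts at origins. The origin recognition complex (ORC), Cdc6 and Cdt1 load rings of the MCM helicase onto DNA in G1, and the kinase Cdc7 with its partner Dbf4, together with Cdc45, GINS and Mcm10, turn the loaded rings into moving forks in S phase. Polymerase alpha and primase start each strand, polymerases epsilon and delta extend the leading and lagging strands, and the clamp PCNA, loaded by replication factor C (RFC), holds the polymerases on DNA. Many of these genes are transcribed under E2F factors as cells pass from G1 into S phase, and ES cells are known for a short G1 and a large share of cells in S phase.

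Esrrb transcript differed from GFP by -2.11 on the log2 scale with the Esrrb hairpin, -1.21 with the Sox2 hairpin and -1.77 in the dual group, and Sox2 transcript by -0.55, -0.45 and -0.93. All 10 ES cell markers were detected on all 4 arrays of every group, and their summed intensity was 92284 to 94699 with the GFP hairpin, 70830 to 80462 with Esrrb, 69358 to 71878 with Sox2 and 62509 to 67023 with both. Of 10 trophectoderm markers, 5 were detected on all arrays with the GFP hairpin, 6 with Esrrb, 8 with Sox2 and 8 with both; Eomes and Elf5 passed in no group. The summed trophectoderm intensity was 8372 to 9410, 7800 to 8524, 18684 to 22931 and 19152 to 25709 in the same order. A sum is weighted toward its brightest probes. By the test described below, 3 of 8 measured trophectoderm markers were higher and 1 lower with Esrrb than with GFP (median difference 0.23). With Sox2 and with both, 6 of 8 were higher and 0 lower. Of all genes 5.86% were higher and 5.77% lower with Esrrb, and 21.7% and 22.1% were higher with Sox2 and with both. Of 9 fibroblast markers with a probe 3 were detected in each group, with sums of 1248 to 1701 over all groups, and of 6 neural markers 3 were detected, with sums of 2111 to 2574 with the GFP, 1760 to 1812 with the Esrrb, 1104 to 1277 with the Sox2 and 1192 to 1448 with both hairpins. Of 3 measured neural markers 1 was lower with Esrrb, with Sox2 and with both. Of 3 measured fibroblast markers 2 were higher and 1 lower with Sox2, and 1 was higher and 1 lower with both. The ES cell and neural sums were below GFP with each other hairpin. The trophectoderm sum was above GFP only where the Sox2 hairpin was given, and the fibroblast sums overlapped in all groups. The part of these sums in the results on replication genes was not tested. In RNA from whole cultures, fewer cells in S phase and less RNA per cell cannot be told apart. The A and B arrays detected 11286 to 12054 of 25697 probes and the C and D arrays 12994 to 13322, in every group alike.

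The results below were taken from limma, with values in log2 of the normalized intensity. In each difference the second group was subtracted from the first. A gene was called when its adjusted p (Benjamini-Hochberg, all 8248 genes) was under 0.05. A probe was measured when its detection score, read as 1 minus the detection p, was above 0.99 on all 4 arrays of at least 1 group. Gins1, Gins2 and Rfc3 had no probe here. Orc1, Orc2, Orc4, Gmnn, Pola1, Prim1 and Pole2 had probes that did not pass, so these 7 have no level either. Orc3 was detected on all 16 arrays, with its lowest score, 0.991, in the GFP group at a mean intensity of 63.5. Pcna passed in the other groups but had a lowest score of 0.958 in the dual group. Outside the limit, the better Orc2 probe reached a lowest score of 0.916 and that of Gmnn 0.863, both in the Sox2 group.

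Promoters of 6 genes are shown, each called lower in at least 1 group given the Sox2 hairpin, because many replication promoters carry E2F letters. Each runs from 250 bases before to 50 bases after the RefSeq transcript start (GRCm38.p6), 5′ to 3′ on the gene's strand. The first 4 had the largest falls among the replication genes described array by array, and Mcm3 and Mcm6 were added after their matches were seen. Capitals mark matches to CCAAT and to 4 E2F words, TTTCCCGC, TTTCGCGC, TTTGCCGC and TTTGGCGC, each searched on both strands with overlapping matches counted separately. Rrm2 lies at chr12:24708004-24708303 (plus strand), Pold2 at chr11:5878207-5878506 (minus), Pcna at chr2:132253131-132253430 (minus), Cdc45 at chr16:18811923-18812222 (minus), Mcm3 at chr1:20820263-20820562 (minus) and Mcm6 at chr1:128359656-128359955 (minus). For Pold2 the first of 2 listed promoters is shown.
Rrm2: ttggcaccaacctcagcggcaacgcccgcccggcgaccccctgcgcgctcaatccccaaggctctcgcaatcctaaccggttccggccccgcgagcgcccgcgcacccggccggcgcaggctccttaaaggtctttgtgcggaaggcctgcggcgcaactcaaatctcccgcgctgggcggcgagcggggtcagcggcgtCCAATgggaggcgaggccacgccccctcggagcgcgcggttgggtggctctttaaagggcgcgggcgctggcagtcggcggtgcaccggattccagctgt
Pold2: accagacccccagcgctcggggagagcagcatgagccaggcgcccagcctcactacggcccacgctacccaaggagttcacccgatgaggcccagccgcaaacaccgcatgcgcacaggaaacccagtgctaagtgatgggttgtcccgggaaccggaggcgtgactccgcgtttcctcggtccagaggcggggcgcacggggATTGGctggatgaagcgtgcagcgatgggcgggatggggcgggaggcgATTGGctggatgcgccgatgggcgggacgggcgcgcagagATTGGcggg
Pcna: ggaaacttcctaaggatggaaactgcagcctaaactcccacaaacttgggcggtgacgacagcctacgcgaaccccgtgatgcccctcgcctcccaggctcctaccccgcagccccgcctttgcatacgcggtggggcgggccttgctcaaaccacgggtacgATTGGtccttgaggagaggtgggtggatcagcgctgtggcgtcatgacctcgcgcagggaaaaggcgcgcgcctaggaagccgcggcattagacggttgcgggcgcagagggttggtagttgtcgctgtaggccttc
Cdc45: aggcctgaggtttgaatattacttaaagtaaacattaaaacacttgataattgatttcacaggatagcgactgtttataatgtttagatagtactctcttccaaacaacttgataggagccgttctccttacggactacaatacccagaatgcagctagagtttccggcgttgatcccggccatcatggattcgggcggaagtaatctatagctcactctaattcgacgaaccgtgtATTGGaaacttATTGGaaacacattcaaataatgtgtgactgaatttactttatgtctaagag
Mcm3: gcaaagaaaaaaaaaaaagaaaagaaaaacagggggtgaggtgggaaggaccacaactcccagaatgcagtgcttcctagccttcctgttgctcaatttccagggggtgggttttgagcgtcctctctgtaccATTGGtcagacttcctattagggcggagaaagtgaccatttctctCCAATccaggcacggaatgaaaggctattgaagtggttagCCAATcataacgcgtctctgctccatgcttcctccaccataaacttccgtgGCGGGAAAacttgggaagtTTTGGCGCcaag
Mcm6: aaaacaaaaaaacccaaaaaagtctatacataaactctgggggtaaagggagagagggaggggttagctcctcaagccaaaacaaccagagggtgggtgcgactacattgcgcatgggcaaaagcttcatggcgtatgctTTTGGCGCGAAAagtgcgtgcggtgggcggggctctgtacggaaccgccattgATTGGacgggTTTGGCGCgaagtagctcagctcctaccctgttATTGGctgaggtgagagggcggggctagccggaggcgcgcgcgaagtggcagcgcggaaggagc

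The Mcm3 promoter held E2F words starting at +19 and +38 from the transcript start and 3 CCAAT words. The Mcm6 promoter held 3 E2F words, at -110, -106 and -47, of which the first and the second overlap, and 2 CCAAT words. Rrm2, Pold2, Pcna and Cdc45 held 0 E2F words and 1, 3, 1 and 2 CCAAT words. Of the 39 listed genes with a promoter in the table, 15 held an E2F word (38.5%), against 4.77% of the 6689 tested genes with a promoter and 2.6% of all 27025 genes there. CCAAT was in 61.5% of the listed genes, 44.4% of the tested genes and 41.1% of all genes. An E2F word was in 8 of the 20 genes with a promoter that were lower in the Sox2 or dual group than with the GFP hairpin (40%), and in 3 of the 12 measured ones that were not (25%). A match is a description of these letters, not a binding site or a cause.

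Replication genes of most roles fell in the groups given the Sox2 hairpin, and few passed the test with the Esrrb hairpin alone. With the Sox2 hairpin, 20 of 37 were lower than with GFP and 1, Pold4, was higher (54.1% lower, against 21.5% of all genes lower and 21.7% higher). In the dual group 21 were lower and Pold4 was higher (56.8%, against 22.3% of all genes lower and 22.1% higher). With the Esrrb hairpin 1 gene was lower, Rrm2, and 1 higher, Rfc1, where 5.77% and 5.86% of all genes were called, so these counts are no larger than the background. At an unadjusted p under 0.05 there were 10 of 37 with Esrrb, against 24.9% of all genes. The median difference over the 37 genes was -0.25 for Sox2, -0.23 for dual and 0.02 for Esrrb, and the median over all genes was -0.00, -0.01 and 0.00.

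Called differences of 1.5-fold or more in either direction numbered 3 with the Sox2 hairpin, the falls of Pold2 and Rfc5 and the rise of Pold4, and 3 in the dual group, the falls of Rrm2, Pold2 and Pcna. Of all genes 13.3% and 14.8% did so. The 4 arrays lay wholly below the 4 GFP arrays for 19 genes with the Sox2 hairpin and for 18 in the dual group, where 20.4% and 18.5% of all genes did so. Within the A and B arrays alone the median over the genes was -0.23 for Sox2 and -0.26 for dual, with 8 and 11 genes lower (12.4% and 14.6% of all genes). Within the C and D arrays it was -0.29 and -0.25, with 15 and 15 lower (15.7% and 16.5% of all genes). Fewer genes were lower after median scaling, 7 with Sox2 and 11 in the dual group (10.4% and 11.1% of all genes), and with the means of the A and B and of the C and D arrays as 2 replicates, 12 and 15 (13.8% and 15.2%). With the array letter as a block, 24 and 23 were lower (24.1% and 25.0% of all genes). Without normalization between arrays the median of all genes moved to -0.10 for Esrrb, -0.14 for Sox2 and -0.14 for dual, and that of the replication genes to -0.10, -0.42 and -0.43. Called genes were then higher in 18.2%, 28.3% and 29.9% of cases, against 50.4%, 50.2% and 49.8% after quantile normalization.

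**Figure D1:**
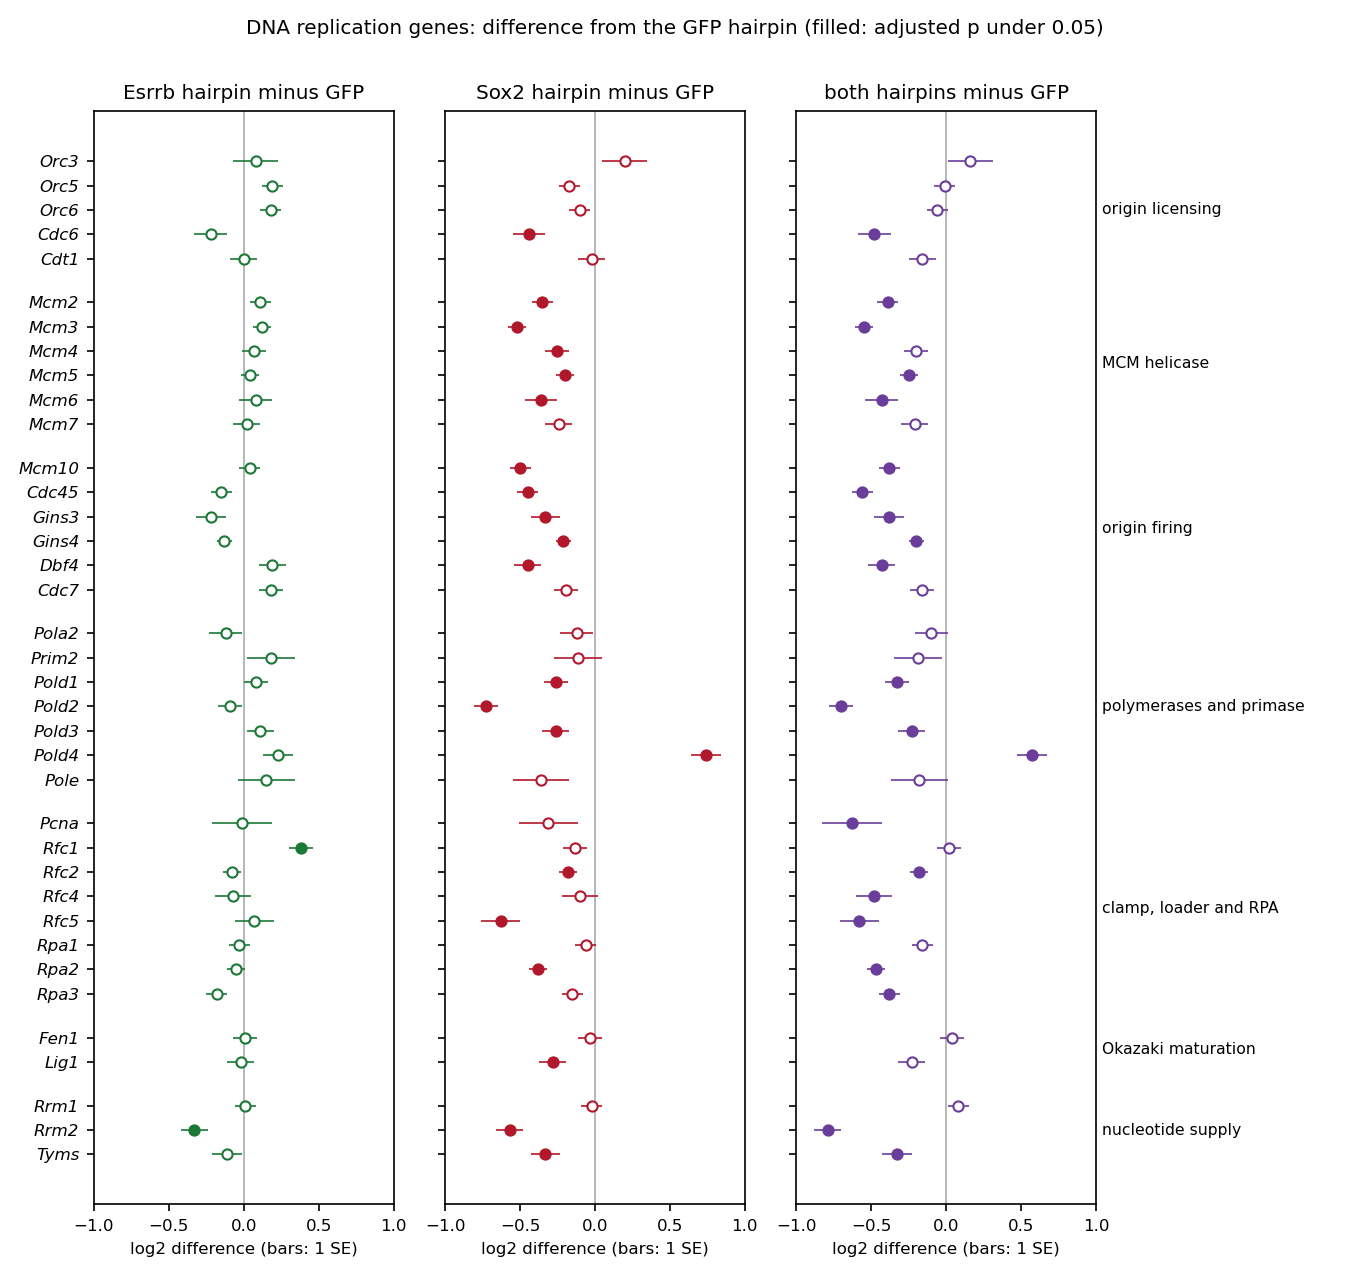
Log2 difference from the GFP hairpin (horizontal axis, bars 1 SE, n = 4 arrays per group) of the 37 measured replication genes, grouped by role, for the Esrrb, Sox2 and both hairpins. Filled points have an adjusted p under 0.05. In the Sox2 panel 20 filled points lie left of 0 and Pold4 lies right of it, while the Esrrb panel has 2 filled points, Rfc1 and Rrm2.

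Origin licensing genes mostly did not pass the test. In the Sox2 and in the dual group 1 of 5 was lower, near the background of 21.5% and 22.3% of all genes. That gene was Cdc6, which with ORC and Cdt1 loads the MCM rings onto DNA. Cdc6 read 9.22, 9.33, 9.67 and 9.48 on the GFP arrays A to D and 8.97, 9.20, 9.41 and 9.26 with the Esrrb hairpin. It read 9.05, 9.0, 8.90 and 8.99 with the Sox2 hairpin and 8.87, 8.89, 9.15 and 8.85 in the dual group. Every Sox2 and dual array lay below every GFP array, while the Esrrb arrays overlapped them. Cdc6 fell by 0.44 (SE 0.11, adjusted p = 0.00345) with Sox2 and by 0.48 (SE 0.11, adjusted p = 0.00157) with both hairpins. The Esrrb difference was -0.22 (adjusted p = 0.224). The origin recognition subunits Orc3, Orc5 and Orc6 differed by 0.20, -0.17 and -0.10 with the Sox2 hairpin (adjusted p = 0.29, 0.0603 and 0.272). Orc5 was -0.24 without GFP array A (adjusted p = 0.00539), and its second probe gave -0.20, with an adjusted p of 0.0381 over all kept probes. Cdt1 differed by -0.02 with Sox2 and -0.16 with both.

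All 6 genes of the MCM2-7 ring, the replicative helicase, had lower values with the Sox2 hairpin. Of these 5 passed the test (83.3%, beside 21.5% of all genes lower). Mcm3 had the largest fall. It read 10.12, 10.12, 10.18 and 10.21 with the GFP hairpin and 9.64, 9.63, 9.64 and 9.63 with the Sox2 hairpin. It read 10.27, 10.25, 10.32 and 10.26 with the Esrrb hairpin and 9.71, 9.43, 9.64 and 9.64 with both. The Sox2 and dual arrays lay well below the GFP arrays and the Esrrb arrays slightly above them. Mcm3 fell by 0.52 (SE 0.06, adjusted p = 5.33e-06) with Sox2 to 69.7% of the GFP level, and by 0.55 (SE 0.06, adjusted p = 2.66e-06) with both, and the Esrrb difference of 0.12 did not pass (adjusted p = 0.242).

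The other ring subunits differed by -0.35 (Mcm2), -0.25 (Mcm4), -0.20 (Mcm5), -0.36 (Mcm6) and -0.24 (Mcm7) with the Sox2 hairpin. Of these Mcm7 just missed (adjusted p = 0.0525), and passed with the array letter as a block (adjusted p = 0.0404), without GFP array C or without any 1 of the dual arrays (lowest 0.035). With both hairpins 4 of 6 fell (66.7%, beside 22.3% of all genes). Mcm4 and Mcm7 had adjusted p of 0.0539 and 0.08, and Mcm4 had 0.0378 with the letter block. Without dual array D both passed, Mcm4 at 0.00781 and Mcm7 at 0.04; Mcm7 also passed without dual array B (0.0257) and Mcm4 without Sox2 array C (0.043). The Mcm4 call with Sox2 was lost without GFP array C (0.0514) or Sox2 array B (0.0524), and the Mcm5 call without GFP D, Sox2 C or Sox2 D (0.058 to 0.0603). For 6 of 6 ring genes the 4 Sox2 arrays lay below the 4 GFP arrays (20.4% of all genes), and below the 4 Esrrb arrays (20.9% of all genes).

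**Figure D2:**
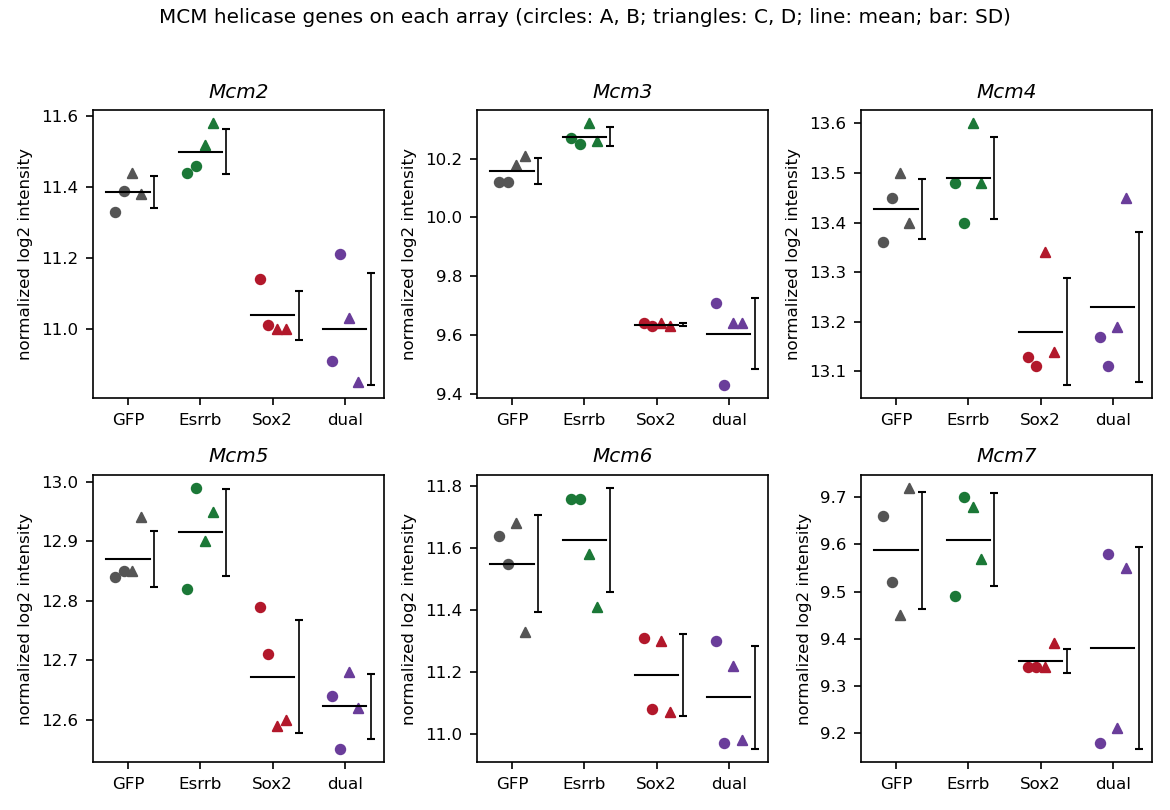
Normalized log2 intensity (vertical axis) of the 6 MCM ring genes on each array of the 4 hairpin groups, with A and B arrays as circles, C and D arrays as triangles, lines at the mean and bars of 1 SD (n = 4). Each Sox2 array lies below each GFP and each Esrrb array in all 6 panels. In the Mcm3 panel the Sox2 arrays lie at 9.63 to 9.64 and the GFP arrays at 10.12 to 10.21.

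Origin firing genes showed the same direction. In the Sox2 and in the dual group 5 of 6 were lower (83.3% in each, beside 21.5% and 22.3% of all genes). Cdc45 is a subunit of the active helicase, in which it is joined to the MCM ring and GINS. It read 10.14, 9.92, 10.18 and 10.12 with the GFP hairpin and 9.68, 9.62, 9.69 and 9.55 with Sox2. It read 10.08, 9.96, 9.87 and 9.86 with the Esrrb hairpin and 9.47, 9.59, 9.58 and 9.50 with both. The Sox2 and dual arrays lay apart from GFP, whereas Esrrb and GFP arrays overlapped. Cdc45 fell by 0.45 (SE 0.07, adjusted p = 9.29e-05) with Sox2 and by 0.56 (SE 0.07, adjusted p = 1.15e-05) with both. Mcm10, which helps start the active helicase, fell by 0.50 and 0.38, and its second probe by 0.64 and 0.45. Dbf4, the activating partner of the kinase Cdc7, fell by 0.45 and 0.43. The GINS subunits Gins3 and Gins4 fell by 0.33 and 0.21 with Sox2 and by 0.38 and 0.20 with both. Cdc7 itself did not pass (-0.19, adjusted p = 0.0724 with Sox2, and -0.16, 0.141 with both). The Sox2 value passed with the letter block (0.0439) and without GFP array D (0.0334), Sox2 array C (0.0348) or dual array B (0.0437). Gins3 with the Esrrb hairpin, -0.22 (adjusted p = 0.185), was -0.35 without GFP array A (adjusted p = 0.00606).

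Among polymerase genes the subunits of polymerase delta moved in opposite directions. Pold2, an accessory subunit that joins the catalytic subunit to the rest of the enzyme, read 11.44, 11.38, 11.41 and 11.28 with GFP and 10.77, 10.77, 10.55 and 10.49 with the Sox2 hairpin. It read 11.23, 11.25, 11.38 and 11.27 with the Esrrb hairpin and 10.65, 10.81, 10.75 and 10.51 with both. Both groups given the Sox2 hairpin lay below every other array. Pold2 fell by 0.73 (SE 0.08, adjusted p = 3.18e-06) with Sox2, to 60.2% of the GFP level, and by 0.70 (SE 0.08, adjusted p = 4.81e-06) with both. It had the largest fall of the replication genes with the Sox2 hairpin in this fit.

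Pold4, the smallest accessory subunit of polymerase delta, rose. It read 8.10, 7.70, 7.76 and 7.61 with the GFP hairpin and 8.44, 8.63, 8.49 and 8.58 with Sox2. It read 8.09, 7.84, 8.0 and 8.15 with the Esrrb hairpin and 8.28, 8.42, 8.36 and 8.40 with both. The Sox2 and dual arrays lay above every GFP and Esrrb array. The rise was 0.74 (SE 0.10, adjusted p = 1.72e-05) with Sox2, or 166.9% of the GFP level, and 0.57 (SE 0.10, adjusted p = 0.000181) with both. With the Esrrb hairpin the difference was 0.23 (adjusted p = 0.15), and 0.33 without GFP array A (adjusted p = 0.0154).

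The catalytic subunit Pold1 fell by 0.26 (adjusted p = 0.0186) with Sox2 and by 0.33 (adjusted p = 0.00472) with both hairpins, and the accessory subunit Pold3 by 0.26 (0.0298) and 0.23 (0.047). The Pold1 call with Sox2 was lost without GFP array A (-0.19, adjusted p = 0.0653) or Sox2 array C (-0.21, 0.0647). The Pold3 calls were lost without any of 5 arrays for Sox2 (adjusted p up to 0.0894) and of 11 arrays for dual (up to 0.149, without dual array B). Pole, the catalytic subunit of polymerase epsilon, differed by -0.36 with Sox2 (adjusted p = 0.13), and passed with the letter block (0.00183) or without GFP array D (-0.50, 0.041). Pola2, the accessory subunit of polymerase alpha, and Prim2, the large primase subunit, differed by -0.12 and -0.11 with Sox2 and did not pass.

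**Figure D3:**
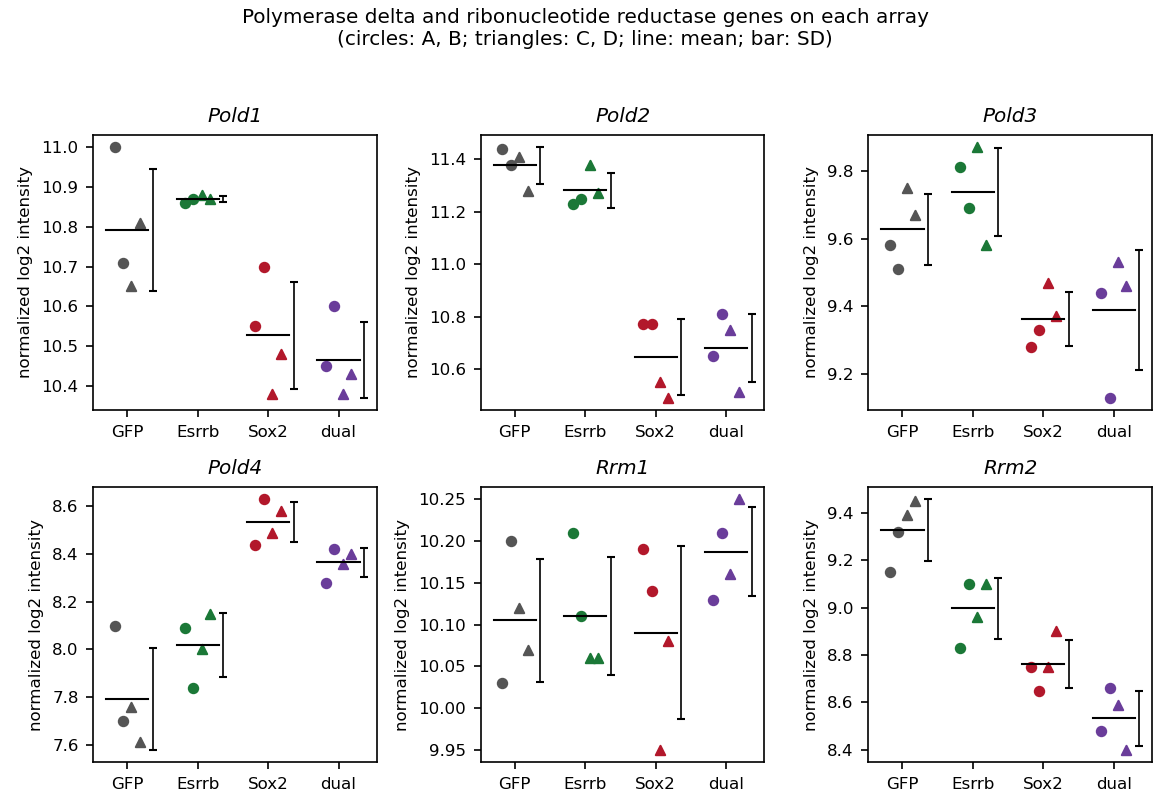
Normalized log2 intensity (vertical axis) of the 4 polymerase delta subunit genes and the ribonucleotide reductase genes Rrm1 and Rrm2 on each array, with A and B arrays as circles, C and D arrays as triangles, lines at the mean and bars of 1 SD (n = 4). Pold2 lies at 10.49 to 10.81 on the Sox2 and dual arrays and at 11.23 to 11.44 on the others, and Pold4 lies in the opposite order. Rrm2 is highest with GFP and lowest with both hairpins, and the Rrm1 groups overlap.

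Of the clamp, clamp loader and RPA genes, 3 of 8 fell with the Sox2 hairpin (37.5%, beside 21.5% of all genes). With both hairpins 6 of 8 fell (75.0%, beside 22.3%). Pcna, the sliding clamp, was read by a dim probe. It read 6.45, 6.85, 6.75 and 6.58 with the GFP hairpin and 6.66, 6.86, 6.61 and 6.44 with Esrrb. It read 6.19, 6.62, 6.28 and 6.28 with Sox2 and 6.47, 5.33, 6.44 and 5.86 with both. The 4 groups overlapped, and dual array B stood lowest. Pcna fell by 0.63 (SE 0.20, adjusted p = 0.0179) with both hairpins, but the call was lost without dual array B (-0.40, 0.0502) or GFP array B (-0.57, 0.0524). The Sox2 difference was -0.31 (adjusted p = 0.224).

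Rfc5, a small subunit of the clamp loader, fell by 0.63 (SE 0.13, adjusted p = 0.0012) with Sox2 and by 0.58 (SE 0.13, adjusted p = 0.0019) with both. The small subunit Rfc2 fell by 0.18 in each, and lost its call without any of 4 arrays in either comparison (adjusted p up to 0.081). Rfc4, another small subunit, differed by -0.10 with Sox2 (adjusted p = 0.528) and fell by 0.48 with both (adjusted p = 0.00383). A dimmer Rfc4 probe gave -0.05 and -0.42 and passed in neither. Rpa2, the middle subunit of RPA, fell by 0.38 and 0.47, and its dimmer probe gave -0.25, which did not pass, and -0.63, which did. The small subunit Rpa3 differed by -0.15 with Sox2 (adjusted p = 0.0743; 0.037 with the letter block, 0.0373 without GFP array D) and fell by 0.38 with both. The large subunit Rpa1 differed by -0.06 and -0.16, the latter passing without dual array B (-0.20, adjusted p = 0.0318).

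Rfc1, the large subunit of the clamp loader, had the largest difference of the called genes with the Esrrb hairpin. It read 10.44, 10.55, 10.64 and 10.57 with GFP and 10.88, 10.84, 11.05 and 10.95 with Esrrb. It read 10.31, 10.39, 10.58 and 10.39 with Sox2 and 10.48, 10.66, 10.50 and 10.66 with both. The Esrrb arrays lay above every other array. Rfc1 rose by 0.38 (SE 0.08, adjusted p = 0.0032), to 130.2% of the GFP level, and differed by -0.13 (adjusted p = 0.169) with Sox2 and 0.02 (adjusted p = 0.818) with both. Rpa3 with the Esrrb hairpin was -0.18 (adjusted p = 0.0933) and passed with the letter block (0.0445).

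Okazaki fragment maturation was read by Fen1, the flap nuclease, and Lig1, the ligase that seals the fragments. Lig1 read 10.87, 10.81, 10.82 and 10.76 with GFP and 10.76, 10.60, 10.39 and 10.41 with the Sox2 hairpin. It read 10.88, 10.95, 10.57 and 10.77 with Esrrb and 10.70, 10.48, 10.53 and 10.63 with both. Every Sox2 and dual array lay below every GFP array, though Sox2 array A and GFP array D both round to 10.76. Lig1 fell by 0.28 (SE 0.09, adjusted p = 0.0246) with Sox2, a call lost without GFP array A (0.0565), Sox2 array C (-0.23, 0.079) or Sox2 array D (-0.23, 0.0776). With both hairpins it was -0.23 (adjusted p = 0.0548), and passed with the letter block (0.0248) or without Esrrb C (0.037), Sox2 A (0.0372) or dual A (0.0419). Of 3 further Lig1 probes, 1 passed in both (-0.35 and -0.29), 1 with both hairpins alone (-0.38 and -0.74) and 1, the dimmest, in neither (-0.16 and -0.42). Fen1 differed by -0.03 and 0.04 and did not pass.

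In nucleotide supply, Rrm2 had the largest fall of the replication genes in the dual group. Rrm2 encodes the small subunit of ribonucleotide reductase, which makes deoxyribonucleotides and is limited to S phase, and Rrm1 the large subunit. Rrm2 read 9.15, 9.32, 9.39 and 9.45 with the GFP hairpin and 8.83, 9.10, 8.96 and 9.10 with Esrrb. It read 8.75, 8.65, 8.75 and 8.90 with Sox2 and 8.48, 8.66, 8.59 and 8.40 with both. The arrays of each of the other groups lay below all GFP arrays. Rrm2 fell by 0.33 (SE 0.09, adjusted p = 0.0214) with Esrrb, by 0.57 (SE 0.09, adjusted p = 7.97e-05) with Sox2 and by 0.79 (SE 0.09, adjusted p = 2.66e-06) with both, to 57.8% of the GFP level. The Esrrb call was lost without GFP array C, GFP array D, Esrrb array A or Esrrb array C (-0.27 to -0.32, adjusted p = 0.0531 to 0.0745). A second Rrm2 probe gave -0.38, -0.76 and -0.80, each with an adjusted p under the threshold.

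Rrm1 differed by 0.01, -0.02 and 0.08 and did not pass in any group. Tyms, thymidylate synthase, fell by 0.33 with Sox2 (adjusted p = 0.0171) and by 0.33 with both (adjusted p = 0.0157). Both Tyms calls were lost without GFP array C (-0.24, adjusted p = 0.0621 and 0.057), the Sox2 call also without Sox2 array A (0.0578) and the dual call without dual array B (0.0529). Of 2 further Tyms probes, 1 gave -0.43 and -0.42 and passed, and a dim one gave 0.15 and 0.14 and did not.

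Setting the dual against the Esrrb group shows what the Sox2 hairpin added in cells that also had the Esrrb hairpin. In it 21 of 37 genes were lower (56.8%) and Pold4 was higher, against 19.6% of all genes lower and 20.6% higher, with a median of -0.29. Mcm3 fell by 0.67 (adjusted p = 5.66e-07), Rfc5 by 0.66 (0.000995), Dbf4 by 0.63 (4.38e-05), Pold2 by 0.60 (2.93e-05) and Mcm6 by 0.51 (0.00135). Pold4 rose by 0.34 (adjusted p = 0.0104). Genes that differed by 1.5-fold or more numbered 5, against 11.0% of all genes. This comparison shares no array with that of Sox2 against GFP. The tests still use the same spread estimate and a joint normalization over all 16 arrays, so their calls are not independent. In both comparisons 14 genes were lower, or 70.0% of the 20 and 66.7% of the 21. Of all genes 13.6% were lower in both, or 63.3% of those lower in the first comparison and 69.6% of those lower in the second, so the members' overlap is near the background. Values lay on the same side of 0 for 34 of 37 genes. The share of all genes doing so was not counted, so nothing particular to the replication genes is read from it. With the letter block 27 were lower (22.4% of all genes), adding Cdc6, Lig1, Mcm7, Pole, Prim2 and Tyms (adjusted p = 0.00354 to 0.0471). The Pcna call, -0.62, was lost without Esrrb array B, dual array B or dual array D (adjusted p up to 0.0642).

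**Figure D4:**
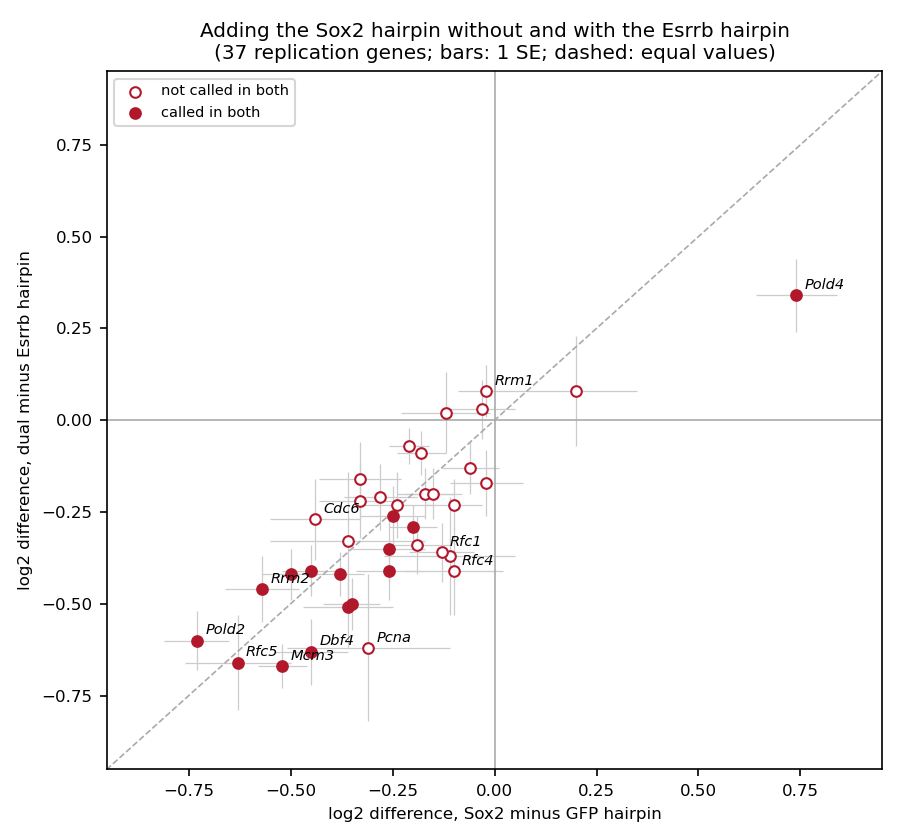
Log2 difference of each of the 37 replication genes when the Sox2 hairpin is set against GFP (horizontal axis) and when both hairpins are set against Esrrb alone (vertical axis), with bars of 1 SE and n = 4 arrays per group. Points on the dashed line are equal in both. Filled points were called in both comparisons, 14 of them below 0 and Pold4 above, at 0.74 and 0.34.

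The dual and Sox2 groups were not told apart. For dual against Sox2, limma called 0 of 37 genes, where 6.41% of all genes were called, and 4 had an unadjusted p under 0.05 (21.4% of all genes). The median was -0.00. With the letter block, limma called 1 gene, Rpa3 (-0.23, adjusted p = 0.024, from 0.0538 without it). The difference of greatest size was that of Rfc4, at -0.38 (adjusted p = 0.0711), which passed without dual array C (-0.47, adjusted p = 0.0261). The interaction asks whether both hairpins together differ from the sum of each alone. It called 0 of 37 genes in limma, with and without the letter block, where 2.89% of all genes were called, and 1 had an unadjusted p under 0.05 (15.9% of all genes). That gene was Pold4, at -0.40 (adjusted p = 0.147), which passed without GFP array A (-0.50, adjusted p = 0.0217).

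Between the single hairpins, 21 of 37 genes were higher with Esrrb than with Sox2 and 1, Pold4, was lower, against 21.0% and 22.1% of all genes. The median was 0.27. With the letter block Prim2 (0.29, adjusted p = 0.0268) and Tyms (0.22, 0.0274) were also higher. All 6 MCM ring genes were higher with Esrrb, by 0.24 (Mcm5) to 0.64 (Mcm3), of which Mcm7 (0.26, adjusted p = 0.0371) lost its call without any 1 of 7 arrays (adjusted p up to 0.095). Rfc5 was higher by 0.70 (adjusted p = 0.00053), Dbf4 by 0.65 (2.89e-05), Pold2 by 0.64 (1.43e-05) and Mcm10 by 0.55 (2.84e-05). Orc5 and Orc6, which did not pass against GFP, were higher with Esrrb by 0.37 (adjusted p = 0.000656) and 0.27 (0.0047). Fen1, Rrm1, Cdt1 and Rpa1 differed by 0.02 to 0.04 and did not pass.

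Genes around the replication machinery were read from 6 further lists, whose counts stand against 21.5% of all genes lower and 21.7% higher with Sox2 and 22.3% and 22.1% with both. Of 17 other replisome genes 5 were lower with Sox2 (29.4%) and 8 with both (47.1%), and 0 were higher. They included Pole4, a small subunit of polymerase epsilon (-0.85 and -0.98, and -0.59 with Esrrb alone, adjusted p = 0.000151), Chtf18, of an alternative clamp loader (-0.62 and -0.61), and Tipin, of the fork protection complex (-0.56 and -0.48). The helicase gene Recql4 passed with both hairpins (-0.52, adjusted p = 0.0324) but not with Sox2 (-0.29, 0.229). Of 9 other nucleotide supply genes 7 were lower with Sox2 (77.8%) and 6 with both (66.7%). They included Dut, which removes dUTP (-0.65 and -0.76), Dctpp1, which breaks down dCTP (-0.66 and -0.85), Umps of pyrimidine synthesis (-0.81 and -0.59) and Shmt1 of folate metabolism (-0.82 and -0.69). The medians of these 2 lists were -0.25 and -0.56 with Sox2, beside -0.00 over all genes.

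Of 9 replication checkpoint genes 3 were lower with Sox2 (33.3%, beside 21.5% of all genes) and 5 with both (55.6%, beside 22.3%). Hus1 and Rad1, parts of the clamp that marks stalled forks, fell by 0.68 and 0.60 with Sox2, and the kinase gene Chek2 by 0.92. Chek1, the kinase that answers stalled forks, differed by -0.46 with Sox2 (adjusted p = 0.0721) and fell by 0.54 with both (0.0366). Of 8 genes of chromatin assembly at the fork, 3 were lower (37.5%) and 1 higher with Sox2 and 2 were lower with both (25.0%, near the background). Chaf1b, a subunit of the histone chaperone CAF-1, fell by 0.59 and 0.60, and Uhrf1, which guides maintenance methylation of DNA, by 0.25 and 0.32.

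Of 10 genes of the E2F and Rb network, 4 were lower (40.0%, beside 21.5% and 22.3% of all genes) and 1 higher in the Sox2 and in the dual group, but the genes were not all the same. E2f1, E2f2, E2f4 and Tfdp1 were lower with Sox2, and E2f1, E2f2, Tfdp2 and Rbl1 with both, while E2f6 was higher in each. E2f4, which acts mainly as a repressor, fell by 0.38 with Sox2 (adjusted p = 0.00403), differed by 0.03 with both (0.819), and was higher with both than with Sox2 by 0.41 (0.0156). E2f4, E2f6 and Tfdp1 are named here after their values were seen. E2f1, an activator of S phase genes, fell by 0.51 (adjusted p = 0.000153) with Sox2 and 0.61 (2.71e-05) with both, and differed by -0.19 (0.181) with Esrrb. E2f2, another activator, fell by 0.80 (adjusted p = 5.32e-05) with Esrrb, 0.78 (1.14e-05) with Sox2 and 0.74 (1.9e-05) with both. Rbl1, a relative of the retinoblastoma protein, differed by -0.54 with Sox2 (adjusted p = 0.0502) and fell by 0.80 with both (0.00585). Its probe was dim, with a mean intensity of 85.05 with GFP and 39.98 with both. It was detected on only 3 dual arrays, and its dual and GFP arrays overlapped. Tfdp2, a partner of E2F proteins, differed by -0.22 (0.141) with Sox2 and fell by 0.45 (0.00486) with both.

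Of 7 genes of the G1/S kinases and their inhibitors, 2 were lower and 2 higher with Sox2 (28.6% each way, near the 21.5% and 21.7% of all genes), and 3 were lower (42.9%, beside 22.3%) and 2 higher with both. The ones that rose encode inhibitors of cyclin-dependent kinases. Cdkn1c rose by 1.32 (adjusted p = 9.6e-10) with Sox2 and 1.52 (1.77e-10) with both, and by 0.41 (0.000644) with Esrrb. Cdkn1a rose by 0.82 (adjusted p = 1.17e-06) and 0.69 (6.23e-06), and differed by -0.10 (0.521) with Esrrb. Skp2, which marks such inhibitors for destruction, fell by 0.26 (adjusted p = 0.0175) and 0.36 (0.00195). Ccne1, cyclin E1, differed by -0.26 (0.115) and fell by 0.42 (0.0145).

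In 12 of the 37 measured replication genes no group was called against GFP. These were Orc3, Orc5, Orc6, Cdt1, Mcm7, Cdc7, Pola2, Prim2, Pole, Rpa1, Fen1 and Rrm1. Their differences with the Sox2 hairpin ran from -0.36 (Pole) to 0.20 (Orc3).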

How the data were processed

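Total RNA of 4 hairpin groups was read on single-colour Illumina arrays, with arrays A to D in each. The authors deposited intensity values on a linear scale without normalization between arrays, per the file headers, and values below 0 show that a background had been subtracted. Beside each intensity they deposited a detection p-value, per the file headers, which rises with intensity and was read as 1 minus p. A further deposited table holds the authors' ratio per probe and group and served as an alternative, though no source used here describes its scaling or names the scanner software. The number of arrays limits the precision.

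In R 4.3.3, limma 3.58.1 (neqc, offset 16) corrected background from the detection p and normalized by quantiles over 16 arrays. Probes with a score above 0.99 on all 4 arrays of a group were kept (11591 of 25697), symbols came from the array annotation and RefSeq gene identifiers (23962 of 23978 matched), and the brightest probe stood for each of 8248 genes. One mean per group was fitted (lmFit, eBayes) for 7 contrasts, with adjusted p over all genes. The procedure was tested on simulated data with independent noise on each array. Deviations shared by arrays of a set, described below, were not simulated. The genes and lists were chosen with earlier results of these data known. Genes described array by array had, in each role, the largest called fall or rise with Sox2 or both hairpins, or the largest called difference with Esrrb. Up to 4 called genes of each further list are named, by their difference in the dual group. Other genes were named beyond that rule, after their values were seen, where all genes of a role are accounted for.

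Arrays of different groups were compared by their deviations from the group means. All 24 same-letter pairs correlated, at r = 0.14 to 0.45, but other letters of the same set (A with B, C with D) did as well, at 0.22 to 0.45. Only 6 of 16 arrays correlated best with their own letter. Arrays of different sets correlated at -0.45 to -0.14. The shared deviations thus follow the set, and pairing by letter is not shown. The main fit had no term for the set. With the set as a block, 24 replication genes were lower for Sox2 and 23 for dual against GFP (24.6% and 25.4% of all genes). For dual against Esrrb 26 were lower (22.8% of all genes).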

Additional observations from a re-analysis of the deposited data

Results flagged for a closer look

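The 4 values of each group were checked for an array standing apart in all 37 measured genes, 148 groups of values in all, of which chance sets apart about 1 in 20, and 10 were set apart. Above the other 3 arrays stood Cdc6 on dual array C (9.15, others 8.85 to 8.89), Mcm2 on Sox2 array A (11.14, others 11.00 to 11.01), Mcm4 on Sox2 array C (13.34, others 13.11 to 13.14), Mcm5 on GFP array D (12.94, others 12.84 to 12.85), Mcm7 on Sox2 array D (9.39, others 9.34 to 9.34) and Gins3 on Sox2 array D (6.81, others 6.64 to 6.66). Below the others stood Gins3 on GFP array A (6.65, others 7.12 to 7.16), Gins3 on dual array B (6.58, others 6.66 to 6.67), Dbf4 on GFP array A (9.56, others 9.75 to 9.77) and Rfc4 on Esrrb array C (8.94, others 9.15 to 9.19).

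Among the genes named from the further lists, the dual against Esrrb difference was unlike the Sox2 against GFP difference for 3. The interaction in limma was 0.84 for E2f2 (adjusted p = 0.00325), 0.47 for Pole4 (adjusted p = 0.038) and 0.47 for Umps (adjusted p = 0.0354). E2f2 differed by -0.78 between Sox2 and GFP and by 0.06 between dual and Esrrb, Pole4 by -0.85 and -0.39, and Umps by -0.81 and -0.34.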

How the results depend on the processing

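No called replication gene changed sign under any of 15 alternatives or when an array was left out, and the deposited ratios gave 0 calls the other way. The number of genes called (of 37: 2 for Esrrb, 21 for Sox2, 22 for dual, each against GFP, 22 for dual against Esrrb, 0 for dual against Sox2, 22 for Esrrb against Sox2, 0 for the interaction) changed as follows. Of all 8248 genes, the main fit called 959, 3565, 3663, 3312, 529, 3552 and 238 in that order. Median scaling gave 0, 8, 12, 8 and, for Esrrb against Sox2, 10. Of all genes it called 201, 1622, 1844, 1289 and 1513. The A and B arrays alone gave 0, 9, 11, 10 and 14 in that order. Of all genes they gave 325, 2156, 2580, 2019 and 2225. The C and D arrays alone gave 1 for Esrrb (480 of all genes), 12 for dual against Esrrb (2253) and 14 for Esrrb against Sox2 (2593). Set means as 2 replicates gave 0 for Esrrb (264 of all genes) and 13 for Sox2 (2337), each with fewer values per group. Fitting the compared groups alone gave 1 for Esrrb (865 of all genes), and no normalization gave 6 (1237). For dual against Sox2, the letter block, the set as a block or random block, detection on every array and the mean of kept probes each gave 1, and trend and robust moderation 2. In these fits 531 to 813 of all genes were called, with 7255 genes tested under detection on every array. Leaving out each array gave 1 to 4 for Esrrb (4 without GFP A, 1 without GFP C, GFP D, Esrrb A or Esrrb C), 18 to 23 for Sox2, 19 to 23 for dual, 19 to 23 for dual against Esrrb, 0 to 1 for dual against Sox2, 18 to 22 for Esrrb against Sox2 and 0 to 1 for the interaction. Among all genes these fits called 723 to 1092 for Esrrb, 3181 to 3791 for Sox2 and 3318 to 3632 for dual. They called 2888 to 3361 for dual against Esrrb and 333 to 571 for dual against Sox2. For Esrrb against Sox2 it was 3110 to 3769, and for the interaction 149 to 261. The cause was not tested where no fewer arrays entered. Without normalization the all-gene median of the interaction was 0.12 and 85.3% of its calls were higher, against 55.9%. Dim probes such as those of Pcna and Orc3 are limited by signal over background.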
